A study of Mus musculus with 8 samples.

Results

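The mature red cell membrane is built from a small set of proteins, and 9 genes that encode them or sit on its surface were followed in RNA sequencing of c-Kit+ mouse bone marrow: Ank1, Sptb and Epb4.2 of the membrane skeleton, the anion exchanger gene Slc4a1, the Rh complex genes Rhag and Rhd, the surface antigen genes Ermap and Kel, and the water channel gene Aqp1. They were chosen by symbol from the 23293 mouse genes of the deposited expression table. All 9 were found, and all 9 had a mean of at least 1 FPKM, the level required for testing. FPKM scales the fragments of a gene by the length of its transcript and by the mapped fragments of the library, so levels of different genes can be set side by side per length. The question behind the design is what a reduced dose of cohesin does to blood formation, with and without a leukaemia allele.

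Bone marrow was taken from individual mice 4 weeks after injection of PIpC, which induces the Mx1-cre recombinase, and cells bearing c-Kit (Cd117), a receptor of early blood progenitors, were enriched on magnetic beads. There were 8 libraries in 4 groups of 2. Smc3 fl/del Flt3-ITD mice carried Mx1-cre, a floxed Smc3 allele and the Flt3-ITD allele, and are called the combined group below. Their genotype field reads fl/del for Smc3 while their sample titles say het. Flt3-ITD mice carried Mx1-cre and Flt3-ITD, a duplication within the Flt3 gene that leaves this receptor kinase active without its ligand and that recurs in human acute myeloid leukaemia. Smc3 del/+ mice carried Mx1-cre and 1 floxed allele of Smc3, which encodes a core subunit of the cohesin ring. Control mice were Smc3 fl/+ without Mx1-cre, so that all groups received PIpC but only the controls lacked the recombinase, and every comparison with controls is also a comparison of Mx1-cre carriers with non-carriers. Mx1-cre is driven by an interferon-responsive promoter and is active in many tissues, not only in blood cells. No source used here gives the ages of the mice.

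The red cell membrane is held in shape by a meshwork of spectrin tetramers that lies beneath the lipid bilayer. Ankyrin ties this mesh to band 3, the chloride and bicarbonate exchanger, and protein 4.2 stabilises that link, while the Rh proteins and other surface molecules gather around band 3 in larger complexes. In bone marrow these genes are switched on as progenitors commit to the erythroid lineage, before most globin is made, and the transcription factors Gata1 and Klf1 are known activators of many of them.

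Several facts of the libraries bear on what follows. Kit itself was at 37.4 to 60.1 FPKM in all 8 libraries. Smc3 was at 103 and 136 FPKM in the combined group, 94.7 and 89.9 in Flt3-ITD, 135 and 133 in Smc3 del/+ and 119 and 112 in controls, so that of the 4 libraries labelled with the Smc3 deletion 3 lay above both controls and combined replicate 1 below both. FPKM of the whole gene does not test the deleted part, and every direction refers to libraries as labelled. Xist, the RNA of the inactive X chromosome in females, was at 596 and 500 FPKM in the combined group, 0.326 and 0.140 in Flt3-ITD, 0.936 and 0.425 in Smc3 del/+ and 657 and 617 in controls. By this measure the combined and control libraries are female in pattern and the Flt3-ITD and Smc3 del/+ libraries male. Comparisons of Flt3-ITD or Smc3 del/+ with controls, and of the combined group with either, are therefore also comparisons between the sexes, whereas combined against control is not. Combined replicate 2 stood apart: 11076 genes were listed at 0 there, against 9107 in the first control library, and 171 genes had low values of 0.01 to 0.1 FPKM, against 850. The combined replicates correlated at r = 0.932 over 10854 genes, which are not independent, against 0.975 to 0.981 within the other groups. Read depth is unknown.

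Because the 9 genes moved together, the 250 bases before their annotated starts were examined. RefSeq windows of the GRCm38.p6 build were at hand for 7 of the 9 genes; the deposited values were made on mm9, and no coordinate was carried between the builds. The windows of Ermap, Aqp1 and Rhag are shown because these genes had the largest log2(FPKM + 1) differences in Flt3-ITD against control, and that of Rhd because it parted from the others in the combined group. Capitals mark GATAA, the core bound by Gata factors, or CCNCNCCCN, the type of CACCC box bound by Klf1, on either strand, with overlapping matches joined. The Ermap window is chr4:119189996-119190245 (minus strand), the Aqp1 window chr6:55336049-55336298 (plus strand), the Rhag window chr17:40810899-40811148 (plus strand) and the Rhd window chr4:134864286-134864535 (plus strand), each written 5′ to 3′ on the strand of its gene.
Ermap: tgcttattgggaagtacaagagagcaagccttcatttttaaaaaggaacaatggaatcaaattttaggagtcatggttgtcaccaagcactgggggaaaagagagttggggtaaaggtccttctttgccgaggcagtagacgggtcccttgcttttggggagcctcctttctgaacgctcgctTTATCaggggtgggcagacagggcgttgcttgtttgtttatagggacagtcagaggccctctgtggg
Aqp1: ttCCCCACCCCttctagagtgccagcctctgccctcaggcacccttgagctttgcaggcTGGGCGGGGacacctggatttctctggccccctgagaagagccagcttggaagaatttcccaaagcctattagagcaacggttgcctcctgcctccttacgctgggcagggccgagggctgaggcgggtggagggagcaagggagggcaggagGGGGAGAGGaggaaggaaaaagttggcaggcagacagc
Rhag: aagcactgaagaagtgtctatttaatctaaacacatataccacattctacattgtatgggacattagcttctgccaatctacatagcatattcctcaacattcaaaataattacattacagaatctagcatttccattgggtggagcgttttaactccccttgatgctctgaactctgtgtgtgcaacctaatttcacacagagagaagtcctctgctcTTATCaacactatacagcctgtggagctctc
Rhd: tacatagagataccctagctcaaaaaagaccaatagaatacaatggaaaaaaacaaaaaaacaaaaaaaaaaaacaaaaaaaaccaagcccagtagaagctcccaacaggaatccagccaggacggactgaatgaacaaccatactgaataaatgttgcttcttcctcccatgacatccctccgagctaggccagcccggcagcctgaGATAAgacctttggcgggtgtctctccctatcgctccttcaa
GATAA began 67 bases before the start in Ermap, 31 in Rhag and 42 in Rhd, and Aqp1 had none. Kel held GATAA at 55 and 18 bases before its start and Epb4.2 at 226, so that 5 of 7 windows held it, against 22.58% of 32851 mouse windows of the same length. CCNCNCCCN was found in the windows of Sptb and Aqp1, 2 of 7, against 45.83% of all windows, and no window of the 7 held both, against 6.88% of all. A match is a description of letters, and its absence says only that these letters are not in this window.

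All 9 genes were lower in Flt3-ITD than in control marrow. They stood at 2.29% (Epb4.2) to 5.35% (Ank1) of the control mean, with a median of 3.83%, and in each gene both Flt3-ITD libraries lay below both controls. Differences were tested as log2(FPKM + 1) with limma across 10854 genes, with a Benjamini-Hochberg adjusted p under 0.05 taken as the threshold, and fold changes on this scale understate the change of low genes. All 9 passed with lower values, whereas 9.50% of the genes tested were called lower, and groups without overlap in this direction were found in 35.2% of them. The median log2 fold change of the 9 genes was -3.64, against -0.01 over all genes tested. In ranks from the most negative fold change, the 9 genes lay between 8 and 89 of 10854. In bulk RNA, fewer cells of a type and less RNA per cell cannot be told apart. Over all genes 1031 were called lower and 924 higher here, against 4768 and 106 in the table the authors normalized and 3404 and 103 with spike-in scaling, scalings that moved the median of all genes by -0.58 and -0.50. The members' medians were -4.18 and -4.13 under those scalings, so they remained well below the shifted median.

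**Figure D1:**
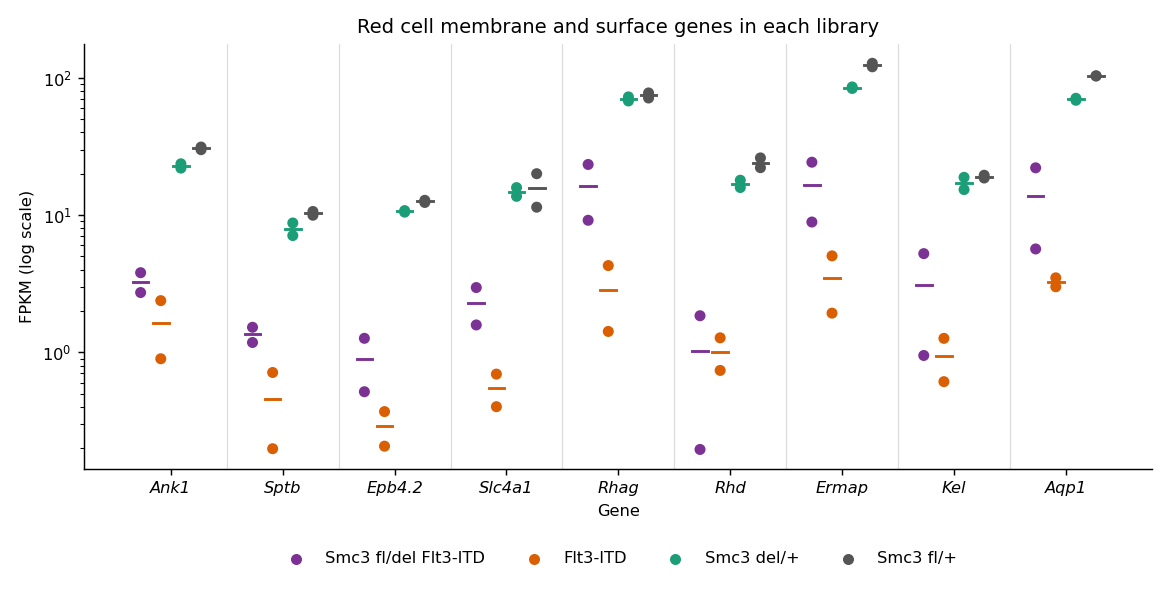
FPKM on a log scale of the 9 red cell membrane and surface genes in each library (points), with the mean of each group of 2 (bars), coloured by genotype. In every gene the Smc3 fl/del Flt3-ITD and Flt3-ITD libraries lie below the Smc3 del/+ and Smc3 fl/+ libraries, and the Flt3-ITD means are 2.29% to 5.35% of the Smc3 fl/+ means.

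Among the skeleton genes, Ank1, which encodes erythroid ankyrin, was at 2.72 and 3.80 FPKM in the combined group, 2.38 and 0.896 in Flt3-ITD, 23.6 and 22.0 in Smc3 del/+ and 29.9 and 31.3 in controls. The groups formed 4 separate steps, with the controls highest and Flt3-ITD lowest. Its log2 fold change in Flt3-ITD against control was -3.64 ± 0.278 (SE; limma adjusted p = 0.000768). Sptb, which encodes the erythroid beta-spectrin chain, was at 1.18 and 1.52 FPKM in the combined group, 0.712 and 0.198 in Flt3-ITD, 8.75 and 7.08 in Smc3 del/+ and 9.97 and 10.6 in controls. It kept the same order without overlap and had the smallest log2 fold change of the 9 in Flt3-ITD against control, at -2.98 ± 0.246 (limma adjusted p = 0.000994). Sptb was also the lowest of the 9 genes in controls, so the pseudocount weighs more on it: on the linear scale it was 22.6 times higher in controls than in Flt3-ITD, a larger ratio than the 18.7 of Ank1. Epb4.2, which encodes protein 4.2, was at 0.516 and 1.26 FPKM in the combined group, 0.369 and 0.207 in Flt3-ITD, 10.8 and 10.5 in Smc3 del/+ and 12.8 and 12.3 in controls. The 4 groups were again separate. Its linear ratio of control to Flt3-ITD, 43.6, was the highest of the 9 genes, but rests on the lowest Flt3-ITD mean of the 9, 0.288 FPKM. The log2 fold change of Epb4.2 was -3.40 ± 0.242 (limma adjusted p = 0.000549).

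Slc4a1 encodes band 3, the anion exchanger to which ankyrin and protein 4.2 bind. It was at 1.58 and 2.96 FPKM in the combined group, 0.693 and 0.401 in Flt3-ITD, 13.7 and 15.8 in Smc3 del/+ and 11.4 and 20.0 in controls. The control libraries differed by more than in any other member and enclosed both Smc3 del/+ values, while both groups with Flt3-ITD lay below them and apart from each other. In Flt3-ITD against control the log2 fold change was -3.39 ± 0.315 (limma adjusted p = 0.00140), and the control mean was 28.7 times the Flt3-ITD mean.

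Of the Rh complex, Rhag encodes the Rh-associated glycoprotein, which conducts ammonia and is needed for the Rh protein to reach the surface. Its levels were 9.16 and 23.4 FPKM in the combined group, 4.28 and 1.42 in Flt3-ITD, 72.6 and 67.8 in Smc3 del/+ and 77.6 and 71.2 in controls. Smc3 del/+ and control libraries interleaved, and the combined group lay between them and Flt3-ITD. The log2 fold change of Flt3-ITD against control was -4.40 ± 0.453 (limma adjusted p = 0.00185). Rhd, the mouse gene for the Rh polypeptide itself, was at 1.85 and 0.196 FPKM in the combined group, 1.27 and 0.737 in Flt3-ITD, 15.9 and 17.9 in Smc3 del/+ and 26.1 and 22.1 in controls. Here the combined libraries enclosed both Flt3-ITD values, the only member of the 9 in which this was so. Its log2 fold change in Flt3-ITD against control was -3.65 ± 0.382 (limma adjusted p = 0.00192).

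Ermap encodes an immunoglobulin-type protein of erythroid cells that carries the Scianna blood group antigens in humans. It was the highest of the 9 genes in controls, at 8.89 and 24.3 FPKM in the combined group, 5.04 and 1.93 in Flt3-ITD, 83.6 and 85.8 in Smc3 del/+ and 128 and 120.3 in controls. All 4 groups were separate, and the difference of Flt3-ITD from control, -4.89 ± 0.455 on the log2 scale (limma adjusted p = 0.00140), was the largest of the 9. Kel encodes the Kell glycoprotein, a surface metallopeptidase and blood group antigen. It was at 0.947 and 5.23 FPKM in the combined group, 1.26 and 0.610 in Flt3-ITD, 18.8 and 15.3 in Smc3 del/+ and 19.5 and 18.6 in controls. Neighbouring groups overlapped, but the groups with Flt3-ITD stayed below those without it. The log2 fold change in Flt3-ITD against control was -3.39 ± 0.483 (limma adjusted p = 0.00504); without control replicate 1 or 2 the adjusted p was 0.0575 or 0.0503, no longer under 0.05, which left 8 of the 9 genes called.

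Aqp1, the water channel that carries the Colton antigens in humans, was at 5.66 and 22.1 FPKM in the combined group, 3.49 and 3.001 in Flt3-ITD, 70.9 and 68.6 in Smc3 del/+ and 103 and 103 in controls. The 4 groups were separate, and the control libraries were almost level with each other. In Flt3-ITD against control its log2 fold change was -4.62 ± 0.478 (limma adjusted p = 0.00185) and its linear ratio of control to Flt3-ITD 31.8. Endothelium also expresses Aqp1. The 8 endothelial markers examined summed to 3.35 and 5.75 FPKM in the combined group, 5.09 and 4.71 in Flt3-ITD, 6.74 and 6.31 in Smc3 del/+ and 8.81 and 6.78 in controls; Sox17 was listed at 0 in all 8 libraries, and Cdh5 did not exceed 0.839 FPKM. Aqp1 by itself was below that sum in both Flt3-ITD libraries and above it in the other 6. The part of endothelial cells in the result was not tested.

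Ermap, Rhag and Aqp1 led the order of levels in all 4 genotypes. In the combined group Ermap (16.6 FPKM), Rhag (16.2) and Aqp1 (13.9) formed an upper set that was separate from Ank1 (3.26) and the genes below it. In Flt3-ITD the means ran from 3.48 FPKM for Ermap to 0.288 for Epb4.2 and every neighbour overlapped the next. Smc3 del/+ gave Ermap (84.7 FPKM), Rhag (70.2), Aqp1 (69.7), Ank1 (22.8), Kel (17.1), Rhd (16.9), Slc4a1 (14.8), Epb4.2 (10.6) and Sptb (7.92), where Rhag with Aqp1 and Kel with Rhd overlapped. In controls the mean levels ran Ermap (124 FPKM), Aqp1 (103), Rhag (74.4), Ank1 (30.6), Rhd (24.1), Kel (19.0), Slc4a1 (15.7), Epb4.2 (12.6) and Sptb (10.3). Of these neighbours, Kel with Slc4a1 and Slc4a1 with Epb4.2 did not differ beyond the spread of the libraries. The sum over the 9 genes was 32.5 and 84.7 FPKM in the combined group, 19.5 and 9.40 in Flt3-ITD, 319 and 311 in Smc3 del/+ and 418 and 410 in controls. Ermap made up 20.5% to 30.5% of that sum over the 8 libraries.

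Marrow that carried both alleles was also low for all 9 genes. In the combined group the members stood at 4.23% (Rhd) to 21.8% (Rhag) of the control mean, with a median of 13.4%. Against controls, which share the Xist pattern of the combined libraries, all 9 were called lower by limma, where 6.38% of all genes were, and none overlapped, where 26.8% of genes lay wholly below. Log2 fold changes ran from -2.26 ± 0.453 in Rhag (adjusted p = 0.0222) to -3.76 ± 0.382 in Rhd (adjusted p = 0.00316). Without control replicate 1 or 2 the median log2 fold change of the 9 genes was -2.85 or -2.87, but fewer of the 9 were called. A fit of these 4 libraries alone called 1 of the 9 lower, where 24 of 10854 genes were called lower. Against Smc3 del/+, all 9 were again called lower, where 2.89% of all genes were, and all lay wholly below, where 25.7% did. The log2 fold changes here ran from -1.92 ± 0.246 in Sptb (adjusted p = 0.0104) to -3.28 ± 0.382 in Rhd (adjusted p = 0.00823). Without either Smc3 del/+ library the fold changes lay between -1.79 and -3.36, but fewer of the 9 were called. A fit of the 4 libraries of these groups alone called 0 of the 9, where 0 of all genes were called lower. Control libraries enter this comparison only through the shared spread, so leaving out 1 of them could not alter the fold changes. Fewer of the 9 were called without either control library.

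When libraries with Flt3-ITD were set against those without it in a model with both alleles as terms, which balances the Xist pattern, all 9 genes were lower by 2.45 (Sptb) to 3.67 (Ermap) on the log2 scale. All 9 passed the limma threshold, with adjusted p of 0.000554 to 0.00323, against 12.8% of all genes called lower. In all 9 genes the 4 libraries with the allele lay below the 4 without it, against 15.1% of all genes. The count of members called was 9 under all 16 alternative settings run for this comparison.

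**Figure D2:**
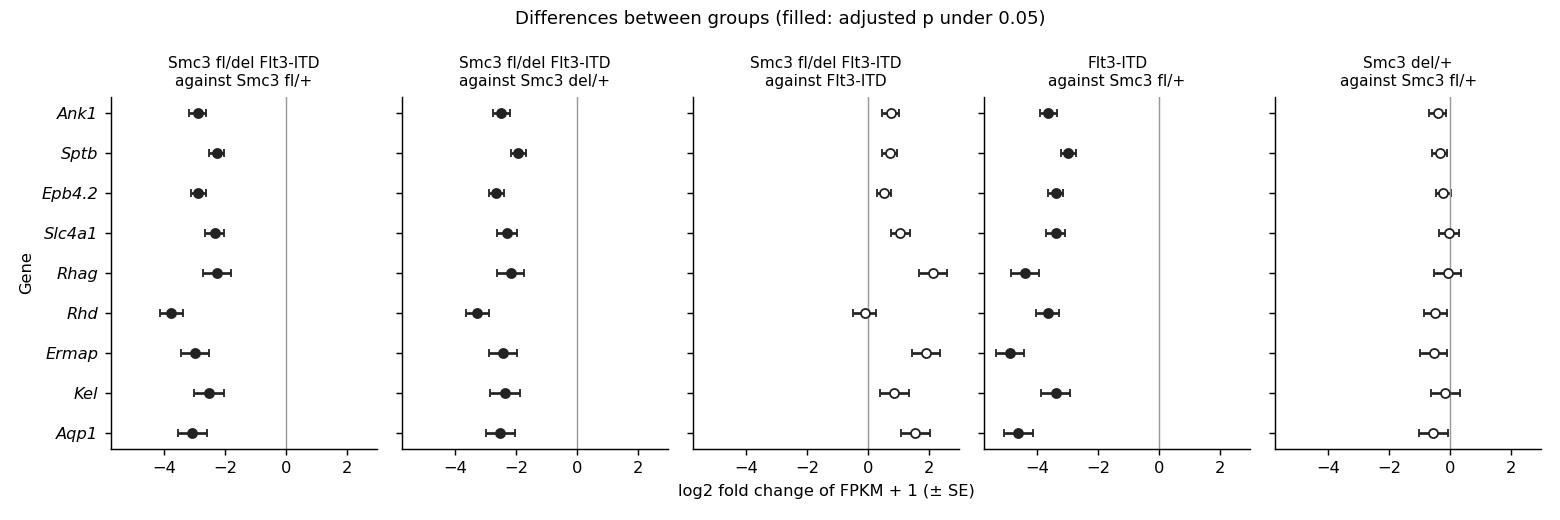
Log2 fold change of FPKM + 1 (x axis, with SE from limma) of the 9 genes (y axis) in 5 comparisons; filled points have an adjusted p under 0.05. All 9 genes are filled and negative in the 3 comparisons of an Flt3-ITD genotype with a genotype lacking it, and none is filled in Smc3 fl/del Flt3-ITD against Flt3-ITD or in Smc3 del/+ against Smc3 fl/+.

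Within the Flt3-ITD background, 8 of the 9 genes had positive log2 fold changes in the combined group against Flt3-ITD alone, but none passed the test. Rhag differed most, at 16.2 ± 10.04 FPKM in the combined group and 2.85 ± 2.03 FPKM in Flt3-ITD (SD, n = 2 each), a log2 fold change of 2.14 ± 0.453 (limma adjusted p = 0.159). Ermap followed at 1.91 ± 0.455 (adjusted p = 0.214) and Aqp1 at 1.55 ± 0.478 (adjusted p = 0.323), and the least positive was Epb4.2 at 0.53 ± 0.242 (adjusted p = 0.462). Rhd, at 1.02 ± 1.17 FPKM in the combined group and 1.01 ± 0.379 FPKM in Flt3-ITD, had a value of -0.11 ± 0.382 (adjusted p = 0.920). Of the 9 genes 0 were called, against 31 of all genes (0.286%), while 6 had an unadjusted p under 0.05, against 11.0% of all genes. In 7 genes both combined libraries lay above both Flt3-ITD libraries, against 17.1% of all genes, and Rhd and Kel overlapped. Without combined replicate 1, 7 genes passed, 6 of them higher (Epb4.2, Slc4a1, Rhag, Ermap, Aqp1 and Kel) and Rhd lower by 0.73 (adjusted p = 0.0465), but 3248 of all genes were then called.

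In most of the 9 genes the combined mice differed from each other more than the controls did on the log2(FPKM + 1) scale. Slc4a1 was an exception, with a difference of 0.618 between the combined libraries and 0.760 between the controls. Combined replicate 2 had higher FPKM than replicate 1 in 8 of the 9 genes, whereas 47.8% of all genes tested were higher in replicate 2. The ratio of replicate 2 to replicate 1 was 5.52 in Kel, 3.90 in Aqp1, 2.73 in Ermap and 2.55 in Rhag, but 1.40 in Ank1 and 1.29 in Sptb. In log2(FPKM + 1) difference Aqp1 ranked 71, Kel 86, Ermap 225 and Rhag 278 of 10854 genes from the highest. Rhd went the other way at 0.106 times, so it supplied 5.68% of the summed level of the 9 genes in replicate 1 and 0.231% in replicate 2, against 4.98% to 7.85% in the other 6 libraries. In Flt3-ITD all 9 genes were lower in replicate 2 than in replicate 1, with ratios of 0.278 (Sptb) to 0.861 (Aqp1), while 45.3% of all genes tested were higher in replicate 2. Whether the many genes listed at 0 in combined replicate 2 have a part in these values was not tested.

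**Figure D3:**
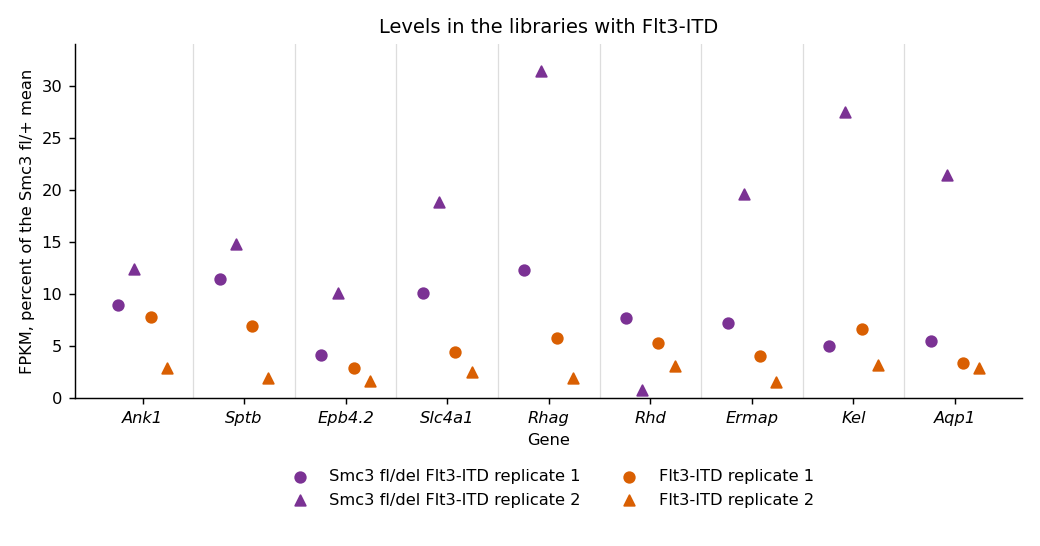
FPKM of each of the 9 genes as a percent of the Smc3 fl/+ mean in the 4 libraries that carry Flt3-ITD, with replicate 1 as circles and replicate 2 as triangles. Smc3 fl/del Flt3-ITD replicate 2 is the highest in all genes except Rhd, where it is the lowest at 0.812%, and its highest value is 31.4% in Rhag.

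With the Smc3 deletion alone, all 9 genes had lower values than in controls but none passed the test. They stood at 67.6% (Aqp1) to 94.3% (Rhag) of the control mean, with a median of 77.0%, and the log2 fold changes ran from -0.04 ± 0.315 in Slc4a1 to -0.56 ± 0.478 in Aqp1, with a limma adjusted p of 1 in all 9. Both Smc3 del/+ libraries lay below both controls in 6 genes (Ank1, Sptb, Epb4.2, Rhd, Ermap and Aqp1), against 23.2% of all genes in this direction. Aqp1 averaged 69.7 ± 1.65 FPKM in Smc3 del/+ and 103 ± 0.235 FPKM in controls (SD, n = 2 each), and Ermap averaged 84.7 ± 1.52 FPKM in Smc3 del/+ and 124 ± 5.15 FPKM in controls. The spread of each gene in this fit is shared over all 4 groups, which include the combined replicates. Of the 9 genes 0 had an unadjusted p under 0.05, against 4.55% of all genes, and 1 of all genes was called (0.00921%). A fit of these 4 libraries alone also called 0 of the 9. For Slc4a1 the sign turned without control replicate 2 (0.34) and without Smc3 del/+ replicate 1 (0.06).

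The Smc3 deletion averaged over both Flt3 backgrounds gave log2 fold changes of -0.30 (Rhd) to 1.03 (Rhag), and in all 9 genes the 4 libraries with the deletion overlapped the 4 without it. None of the 9 was called, at an adjusted p or at an unadjusted p under 0.05; over all genes 0 (0%) were called and 4.84% had an unadjusted p under 0.05. The difference between the 2 Smc3 differences, the interaction, was positive in all 9 genes, from 0.38 ± 0.540 in Rhd to 2.45 ± 0.643 in Ermap. For it limma called 0 of the 9 and 4 of all genes (0.0369%), while 6 of the 9 had an unadjusted p under 0.05, against 9.30% of all genes. Since the Xist pattern follows this contrast in full, sex and the interaction cannot be told apart here. Without combined replicate 1, 5 genes passed (Epb4.2, Rhag, Ermap, Aqp1 and Kel) with 2036 of all genes, and without combined replicate 2, Aqp1 did (1.21, adjusted p = 0.0270).

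Beyond these 9, a list of 34 other genes of the red cell membrane and surface was examined in Flt3-ITD against control. Of 29 that could be tested, 18 were called lower and 2 higher by limma, where 9.50% of all genes were called lower and 8.51% higher, and their median log2 fold change was -1.37. Tmod1, Icam4, Bcam, Aqp3 and Sema7a were under 1 FPKM and not tested. Among those with the smallest p, all lower, were Slc14a1, Add2 and Tspan33. Slc14a1, the urea transporter that carries the Kidd antigens in humans, was at 3.21 and 3.06 FPKM in Flt3-ITD and 34.3 and 33.7 FPKM in controls (log2 fold change -3.08 ± 0.149, limma adjusted p = 0.000153). Add2, the beta chain of adducin, which caps actin at spectrin junctions, was at 2.08 and 0.767 FPKM in Flt3-ITD and 26.2 and 27.7 FPKM in controls (-3.58 ± 0.278, adjusted p = 0.000806). Tspan33, a tetraspanin, was at 2.93 and 1.58 FPKM in Flt3-ITD and 27.9 and 29.6 FPKM in controls (-3.22 ± 0.249, adjusted p = 0.000796).

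The rest of that list did not move as the 9 did. Its 4 most abundant genes that were not called were Cd24a, Cd47, Stom and Add1. Cd24a, a surface glycoprotein of many immature blood cells, was at 694 and 577 FPKM in Flt3-ITD and 649.5 and 601 FPKM in controls (log2 fold change 0.02). Cd47, the surface signal that holds off phagocytes, was at 144 and 133 FPKM in Flt3-ITD and 129.9 and 118 FPKM in controls (0.16). The groups overlapped in Cd24a and were separate by a small gap in Cd47, and both genes are made by many kinds of blood cell. Stom, which encodes stomatin, was at 76.3 and 79.8 FPKM in Flt3-ITD and 95.3 and 93.6 FPKM in controls (-0.27), and Add1, the alpha chain of adducin, was at 73.4 and 56.3 FPKM in Flt3-ITD and 61.0 and 65.1 FPKM in controls (0.03). The 2 called higher were Add3, the adducin chain found outside red cells as well, at 0.96 ± 0.217 (adjusted p = 0.0240), and Cd44, the hyaluronan receptor, at 0.69 ± 0.131 (adjusted p = 0.0137). Within adducin, the erythroid-type chain Add2 was thus lower, Add3 higher and Add1 at 0.03 ± 0.246. In the combined group against control 16 of the 29 were called lower and 1 higher (Cd44), where 6.38% and 5.41% of all genes were. Against Smc3 del/+ 10 were called lower and 0 higher, where 2.89% and 2.55% of all genes were. Against Flt3-ITD 0 were called, where 0.286% of all genes were called in either direction.

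**Figure D4:**
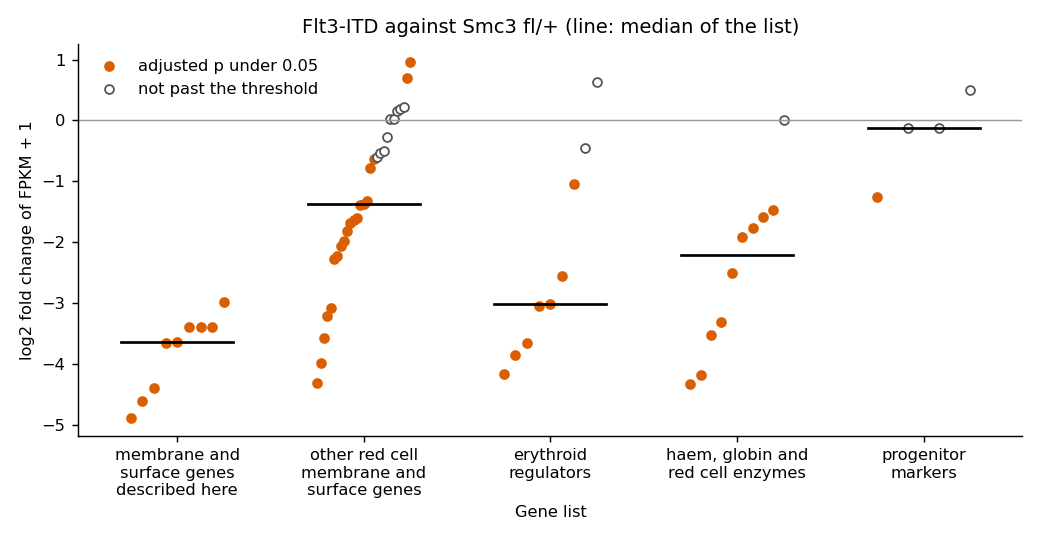
Log2 fold change of FPKM + 1 in Flt3-ITD against Smc3 fl/+ for each tested gene of 5 lists, with the median of each list as a line and genes past an adjusted p of 0.05 filled. The medians are -3.64 for the 9 membrane and surface genes, -1.37 for 29 other membrane and surface genes, -3.02 for 9 erythroid regulators, -2.22 for 10 haem, globin and red cell enzyme genes and -0.12 for 4 progenitor markers.

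Most of a list of erythroid regulators was lower as well. Of 9 such genes 7 were called lower in Flt3-ITD against control and 0 higher, with a median of -3.02. Over all genes 9.50% were called lower and 8.51% higher. The part of these regulators in the levels of the 9 membrane and surface genes was not tested. Klf1 was at 2.68 and 0.897 FPKM in Flt3-ITD and 42.1 and 51.5 FPKM in controls (-4.17 ± 0.351, limma adjusted p = 0.00107), and Gata1 was at 3.16 and 0.534 FPKM in Flt3-ITD and 30.1 and 32.1 FPKM in controls (-3.67 ± 0.424, adjusted p = 0.00269). Nfe2 and Lmo2, which are also used outside the erythroid lineage, had values of 0.62 and -0.45 and were not called. In the haem, globin and red cell enzyme list 9 of 10 tested genes were called lower, with a median of -2.22, although the globin genes share near-identical copies and their split is uncertain. Of the 4 progenitor markers Kit (-0.12), Myb (-0.12) and Cd34 (0.49) were not called, and Gata2 was called lower (-1.26, adjusted p = 0.0279).

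The genes whose profile over the 8 libraries lay nearest to the mean profile of the 9 included the further skeleton gene Add2. Likeness was measured as the root mean square distance of log2(FPKM + 1) after centring each gene on its own mean, for which the median over all genes was 1.64. Among the 10 nearest were Tmem56 (0.120), Abcb4 (0.136), Add2 (0.157), Slc38a5 (0.177), Aldh1a1 (0.188), Mfsd2b (0.200), Blvrb (0.202), Ctse (0.224) and Sept8 (0.224). Tmem56, for example, was at 1.79 and 3.56 FPKM in the combined group, 1.62 and 0.467 in Flt3-ITD, 19.6 and 17.6 in Smc3 del/+ and 25.4 and 22.2 in controls. Among the 9 themselves, Ank1 was nearest to the mean of the others (0.186) and Rhd farthest (0.756), with ranks of 7 and 116 of 10846.

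Markers of other marrow cells were measured beside these values. The 8 megakaryocyte markers summed to 17.3 and 66.4 FPKM in the combined group, 17.5 and 24.6 in Flt3-ITD, 72.5 and 81.9 in Smc3 del/+ and 208 and 203 in controls. All 8 were called lower in Flt3-ITD against control, where 9.50% of all genes were. Like 8 of the 9 genes, the megakaryocyte sum was higher in combined replicate 2 than in replicate 1, chiefly through Pf4, at 52.0 and 9.54 FPKM. Gp1ba, Gp9 and Tubb1 were lower in replicate 2 (1.41, 0 and 0 FPKM, against 2.70, 0.514 and 0.278), and the other megakaryocyte markers were higher. The 11 macrophage markers summed to 83.0 and 97.0 FPKM in the combined group, 92.8 and 82.3 in Flt3-ITD, 117 and 139 in Smc3 del/+ and 112 and 126 in controls. Most of each sum came from Vcam1 (48.3 and 48.2 FPKM in Flt3-ITD, 47.5 and 42.4 in controls) and Slc40a1 (36.7 and 28.6, 34.4 and 33.3). C1qb and C1qc averaged 1.15 and 0.533 FPKM in Flt3-ITD and 11.1 and 8.74 in controls. Of 9 tested, 6 were called lower and 1 higher (Emr1) in Flt3-ITD against control, where 9.50% and 8.51% of all genes were. The 6 B cell markers summed to 7.59 and 10.3 FPKM in the combined group, 5.06 and 9.67 in Flt3-ITD, 31.1 and 41.2 in Smc3 del/+ and 182 and 68.8 in controls. The 8 neutrophil markers summed to 142290 and 172272 FPKM in the combined group, 229091 and 160367 in Flt3-ITD, 108554 and 104498 in Smc3 del/+ and 86752 and 79436 in controls. Of these markers 3 (Ltf, Camp and Lcn2) were called higher in Flt3-ITD against control, where 8.51% of all genes were. The 4 progenitor markers summed to 361 to 481 FPKM over all 8 libraries, with Myb the highest in each. In the combined group Kit stood at 67.4%, Gata2 at 41.5%, Myb at 88.6% and Cd34 at 167% of the control mean. Of these 4, limma called 2 lower and 1 higher there, where 6.38% of all genes were called lower and 5.41% higher. The part of these cell types in the levels of the 9 genes was not tested.

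**Figure D5:**
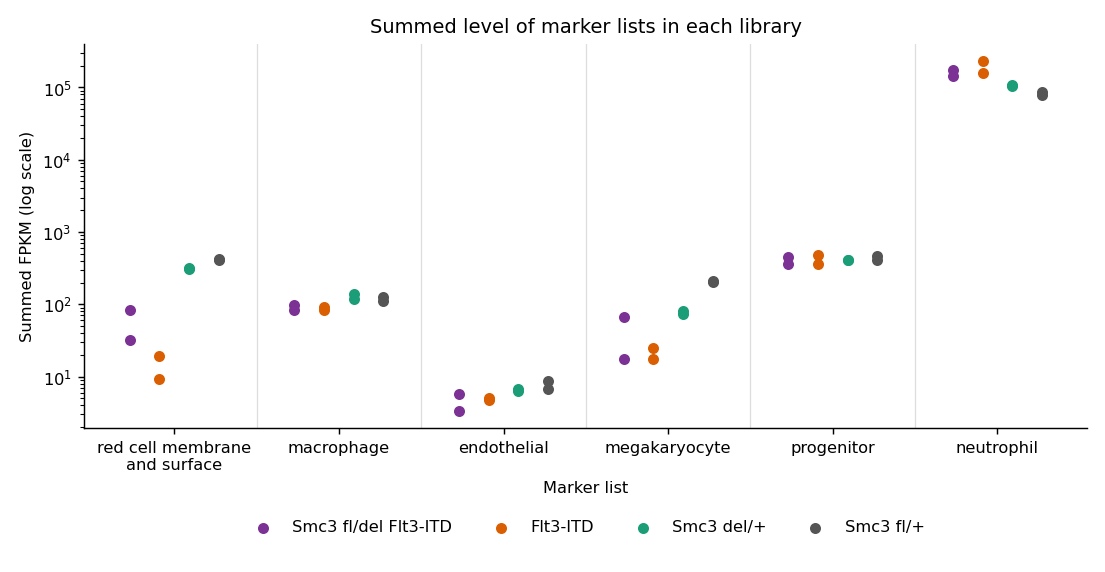
Summed FPKM (log scale) of the 9 membrane and surface genes and of 5 marker lists in each library (points), coloured by genotype. The membrane and surface sum is 9.40 to 84.7 in the libraries with Flt3-ITD and 311 to 418 in those without it. The progenitor sum, in which Myb is the highest gene, stays between 361 and 481, and the neutrophil sum is highest with Flt3-ITD.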

How the data were processed

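Polyadenylated RNA of c-Kit+ bone marrow cells was sequenced in 8 libraries. The authors deposited FPKM values for 23385 rows, of which 92 are spike-in RNAs, in 2 tables; the first was used, and the second, rescaled by the authors in a way not given in the sources used here, served as an alternative. The submitters' processing notes name mm9, Cufflinks 2.0.0 and TopHat without their roles. FPKM holds no counts, so depth, counting intervals and detection floors are unknown.

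The 10854 genes whose mean over all libraries reached 1 FPKM entered the tests. Values were taken as log2(FPKM + 1), and limma 3.58.1 (R 4.3.3) was run on them with its spread estimate following the mean level and with Benjamini-Hochberg adjustment over all these genes; a gene was called at an adjusted p under 0.05. Pairwise differences and the interaction came from a fit of 4 group means (4 residual degrees of freedom), and averaged effects from an additive fit (5). Comparisons with controls share the control libraries. A 2 against 2 exact permutation test cannot go below p = 0.333, so calls rest on the model across genes. The fit was tested on simulated data. Replicates are individual mice; replicate numbers were used as a block only as an alternative.

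The 9 genes and all gene lists were chosen with earlier results of these data known. Of the other membrane genes, those named have the 4 smallest p in Flt3-ITD against control or the 4 largest means without a call, and the similar genes are the 10 nearest by profile; 1 gene that both rules name is not reported here. Genes named from the regulator and cell type lists, Add3 and Cd44 were chosen after their values were seen. Alternatives were a pseudocount of 0.1, no filter, a mean of at least 5 FPKM, the second table, median and spike-in scaling, no variance trend, only the groups compared, the block and each library left out. Promoter windows are RefSeq sequence of GRCm38.p6, matched by current symbol.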

Additional observations from a re-analysis of the deposited data

Results flagged for a closer look

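In 5 of the 9 genes the Smc3 difference pointed opposite ways without and with Flt3-ITD: both Smc3 del/+ libraries lay below both controls, while both combined libraries lay above both Flt3-ITD libraries. Over all genes tested, 585 of 10854 (5.39%) had this pattern. The difference between these differences, on the log2(FPKM + 1) scale, was 2.45 in Ermap, 2.11 in Aqp1, 1.15 in Ank1, 1.06 in Sptb and 0.75 in Epb4.2. It was tested as an interaction with limma, and none passed (adjusted p = 0.310, 0.416, 0.452, 0.422 and 0.562 in that order). Between them the single differences were small without Flt3-ITD, at -0.22 (Epb4.2) to -0.56 (Aqp1), and 0.53 (Epb4.2) to 1.91 (Ermap) with it. The Xist pattern follows the same contrast, so sex and the interaction cannot be told apart.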

How the results depend on the processing

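Under the 17 alternatives for single comparisons and the 16 for the interaction and averaged effects, the count of the 9 genes called lower was 8 to 9 in Flt3-ITD against control and 9 throughout for the averaged Flt3-ITD effect; it was 0 throughout in Smc3 del/+ against control and for the averaged Smc3 effect. In the combined group against Smc3 del/+ the count was 5 without a filter, where 198 of all genes were called lower. It was 0 with only the 2 groups compared, where 0 of all genes were called lower. Against control it was 1 with only the 2 groups compared, where 24 of all genes were called lower. With 1 library left out, the members' median log2 fold change ranged over -2.81 to -1.82 against Smc3 del/+. Against control that range was -3.14 to -2.17. It was 0.60 to 1.36 in the combined group against Flt3-ITD and 0.80 to 1.40 for the interaction. The counts called changed with the library left out. In the combined group against Smc3 del/+ and against control, fewer of the 9 were called in some of these fits. The causes of these changes were not tested. With replicate number as a block, Rhag (adjusted p = 0.0634) and Kel (0.0584) were lost in the combined group against Smc3 del/+, leaving 7; all genes called in the combined group against Flt3-ITD numbered 3 with the block against 31 without it. Over all genes tested, deviations of same-numbered libraries correlated at r = -0.113 to 0.023. The labels do not say what a replicate number marks, and such a correlation cannot exclude an effect shared by few genes. Signs of values that were not called turned as follows. Rhd in the combined group against Flt3-ITD was 0.016 in the normalized table. For the averaged Smc3 effect Ank1, Sptb and Epb4.2 were -0.063, -0.030 and -0.051 in the normalized table and -0.086, -0.050 and -0.073 with spike-in scaling. With 1 library left out, Slc4a1 in Smc3 del/+ against control ranged over -0.42 to 0.34, Rhd in the combined group against Flt3-ITD over -0.73 to 0.52 and its interaction over -0.25 to 1.004. The averaged Smc3 effect then ranged over -0.12 to 0.30 in Ank1, -0.026 to 0.34 in Sptb, -0.038 to 0.24 in Epb4.2, -0.075 to 0.71 in Aqp1 and -0.082 to 0.59 in Kel. Over all genes, counts of calls depended on the setting: 243 to 4874 in Flt3-ITD against control, 1 to 22 in Smc3 del/+ against control, 2 to 3248 in combined against Flt3-ITD, 2 to 2724 against Smc3 del/+, 41 to 5981 against control, 2 to 2036 for the interaction, 1208 to 5053 for the averaged Flt3-ITD effect and 0 to 4 for the averaged Smc3 effect. In combined against control the 692 lower and 587 higher genes became 5857 and 124 in the normalized table and 4757 and 117 with spike-in scaling.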
